A study of Mus musculus with 5 samples.

Results

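This account covers 42 lysosomal genes in the livers of mice with extra Fra-1 in hepatocytes, compared with control livers. The genes were listed by name and found on the arrays through the RefSeq accession of each probe, without its version. Of the 42 genes, 41 had at least 1 matched probe, 49 probes in all, out of 19752 genes named on the array. Cd68, a lysosomal membrane protein of macrophages, had no matched probe. The 41 comprised 9 cathepsins, 9 other acid hydrolases, 2 lumenal cofactors, 6 membrane proteins, the regulator Tfeb, and 14 subunits of the vacuolar ATPase, 6 of its V0 sector and 8 of its V1 sector. Each of the 41 stood well above background on every array, in Cy5 and in Cy3, and was tested.

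Liver RNA was hybridised to 2-colour Agilent arrays. A single Fra-1hep mouse (C57BL/6J) in Cy5 was set on each of 4 arrays against a Cy3 pool made from 5 wild-type C57BL/6J controls. The remaining array had the opposite dyes, the controls' pool being in Cy5 and pooled Fra-1hep RNA in Cy3. The animals behind the Fra-1hep pool, and the promoter that drives Fra-1, are not given in the sources used here. All animals of both genotypes were sampled at 26 to 28 weeks of age, after high-fat feeding (45% of energy from fat) since week 4. Because the controls were pooled, they count as 1 control sample, and every test below leaves out the spread among control mice. Mouse 1 lay on a slide of its own, and the other arrays shared a slide.

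Each array had 62976 spots, and of those that were no controls 47.2% to 54.7% stood well above background in Cy5 and 47.7% to 61.5% in Cy3. The single probe of Fosl1, the gene of Fra-1, stayed near background in Fra-1hep RNA on every array. Its log2 ratios were -0.37, -0.23, 0.11 and 0.12 in mice 1 to 4 and -0.09 with swapped dyes, so it did not check the genotype labels. All 10 listed hepatocyte markers were well above background for both genotypes throughout. Every value below is a log2 ratio of Fra-1hep over control unless said otherwise. The change of a gene is the genotype coefficient of a limma fit ± its standard error, from 4 mice plus the swapped array. A gene passed at an adjusted p below 0.05, by limma with Benjamini-Hochberg adjustment over 21521 features.

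Lysosomes are acidic organelles in which hydrolases break down proteins, lipids, glycans and nucleic acids delivered by endocytosis, phagocytosis and autophagy. The vacuolar ATPase (V-ATPase) acidifies them: its cytosolic V1 sector hydrolyses ATP and its membrane V0 sector carries the protons. Many lysosomal genes share a promoter element bound by the factor TFEB, and in liver both hepatocytes and macrophages are rich in lysosomes.

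The promoters of the genes were searched because members that moved and members that did not can be set side by side at the level of sequence. Promoters came from RefSeq on build GRCm38.p6 and ran from 250 bases before to 50 bases after the start, and 33 of the 42 genes had an entry, with 39 windows in all. Atp6v0d2 was not among them. The palindromic CLEAR element, the consensus site of TFEB, was found in 0 of 33, against 0.37% of all 27025 genes with a window. Its core CACGTG, which any CLEAR element also contains, was found in 12 of 33 (36.4%), against 8.09% of all genes. It occurred in 3 of the 10 genes that fell (Ctsa, Atp6v0e and Atp6v1a) and in 9 of the 21 that did not pass. None of the 6 promoters of genes that fell by at least 0.40 held it. TGANTCA, a loose form of the AP-1 site of FOS and JUN family factors, was found in 5 of 33 (15.2%), against 8.97% of all genes. These were Atp6v0a1, Cd68, Glb1, Neu1 and Psap, and 0 of the 10 genes that fell held it. N stands for any base: the Atp6v0a1 match reads TGATTCA, and the matches in the other genes read TGAGTCA. Both strands were searched, and a match describes letters, not occupancy.

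The 250 bases before the start are given 5′ to 3′ for 2 genes that fell and whose windows hold none of the motifs searched, Ctss (chr3:95526536-95526785, plus strand) and Laptm5 (chr4:130913066-130913315, plus strand). They stand beside 2 genes that did not pass and hold several copies of CACGTG, printed in capitals: Lamp1 (chr8:13158911-13159160, plus strand), with copies at -61, -45, -28 and -15 from the start, and Atp6v0b (chr4:117887330-117887579, minus strand), with copies at -36 and -18. These genes were picked by call and motif content and do not stand for the list, where 3 of the 10 genes that fell held CACGTG.
Ctss: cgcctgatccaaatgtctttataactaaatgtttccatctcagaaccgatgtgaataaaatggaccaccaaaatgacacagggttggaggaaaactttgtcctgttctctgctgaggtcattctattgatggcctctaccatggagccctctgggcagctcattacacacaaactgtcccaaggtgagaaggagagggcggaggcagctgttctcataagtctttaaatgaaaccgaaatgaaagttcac
Laptm5: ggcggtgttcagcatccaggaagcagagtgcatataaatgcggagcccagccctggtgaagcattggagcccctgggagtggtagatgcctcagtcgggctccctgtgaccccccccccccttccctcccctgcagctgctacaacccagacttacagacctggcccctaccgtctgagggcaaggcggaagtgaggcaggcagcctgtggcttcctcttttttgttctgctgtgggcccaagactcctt
Lamp1: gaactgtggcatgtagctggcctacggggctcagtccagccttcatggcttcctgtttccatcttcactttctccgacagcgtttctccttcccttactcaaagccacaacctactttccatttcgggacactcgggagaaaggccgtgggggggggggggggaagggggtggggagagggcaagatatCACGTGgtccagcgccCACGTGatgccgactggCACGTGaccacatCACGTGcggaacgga
Atp6v0b: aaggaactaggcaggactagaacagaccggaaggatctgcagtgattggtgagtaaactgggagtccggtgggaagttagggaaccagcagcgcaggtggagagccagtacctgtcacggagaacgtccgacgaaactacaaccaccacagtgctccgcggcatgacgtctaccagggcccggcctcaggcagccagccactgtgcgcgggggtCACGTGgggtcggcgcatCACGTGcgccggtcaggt

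Across the list, 10 genes fell, 2 rose and 29 did not pass. Among all 13540 named genes tested, 18.5% fell and 12% rose, which makes 30.6% in either direction, close to the 29.3% of these genes. With unnamed features included, 15.4% fell and 11.2% rose, 26.6% in all. The median of the 41 genes was -0.12, against -0.02 for all named genes. The falls were those of 5 cathepsins, 3 membrane proteins and 2 subunits of the V-ATPase, and the large rise was in 1 V0 subunit. All 5 arrays gave a ratio below 0 for 16 of the genes and above 0 for 2, while 23.8% of named genes were below 0 on all 5 arrays and 16.1% above. The swapped array carries as much weight in each coefficient as the 4 mice together. Without it, 18 of the genes fell and 3 rose, with 9 of the 10 falls among them, and the background was then 23.8% lower and 16.7% higher. With its sign turned in a fit lacking the dye term, 13 fell and 1 rose, against 19.7% and 12.7% of named genes. The spread among the 5 control mice was not measured, so it was assumed equal to the spread fitted from the Fra-1hep mice. With that spread added, each standard error was 1.28-fold larger, and 8 falls and 1 rise were left, against 9.93% and 6.03%. In each of these fits the share of the 41 genes that fell was above that of named genes, and the share that rose below it. These differences were not tested, as the genes were chosen with earlier results known.

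**Figure D1:**
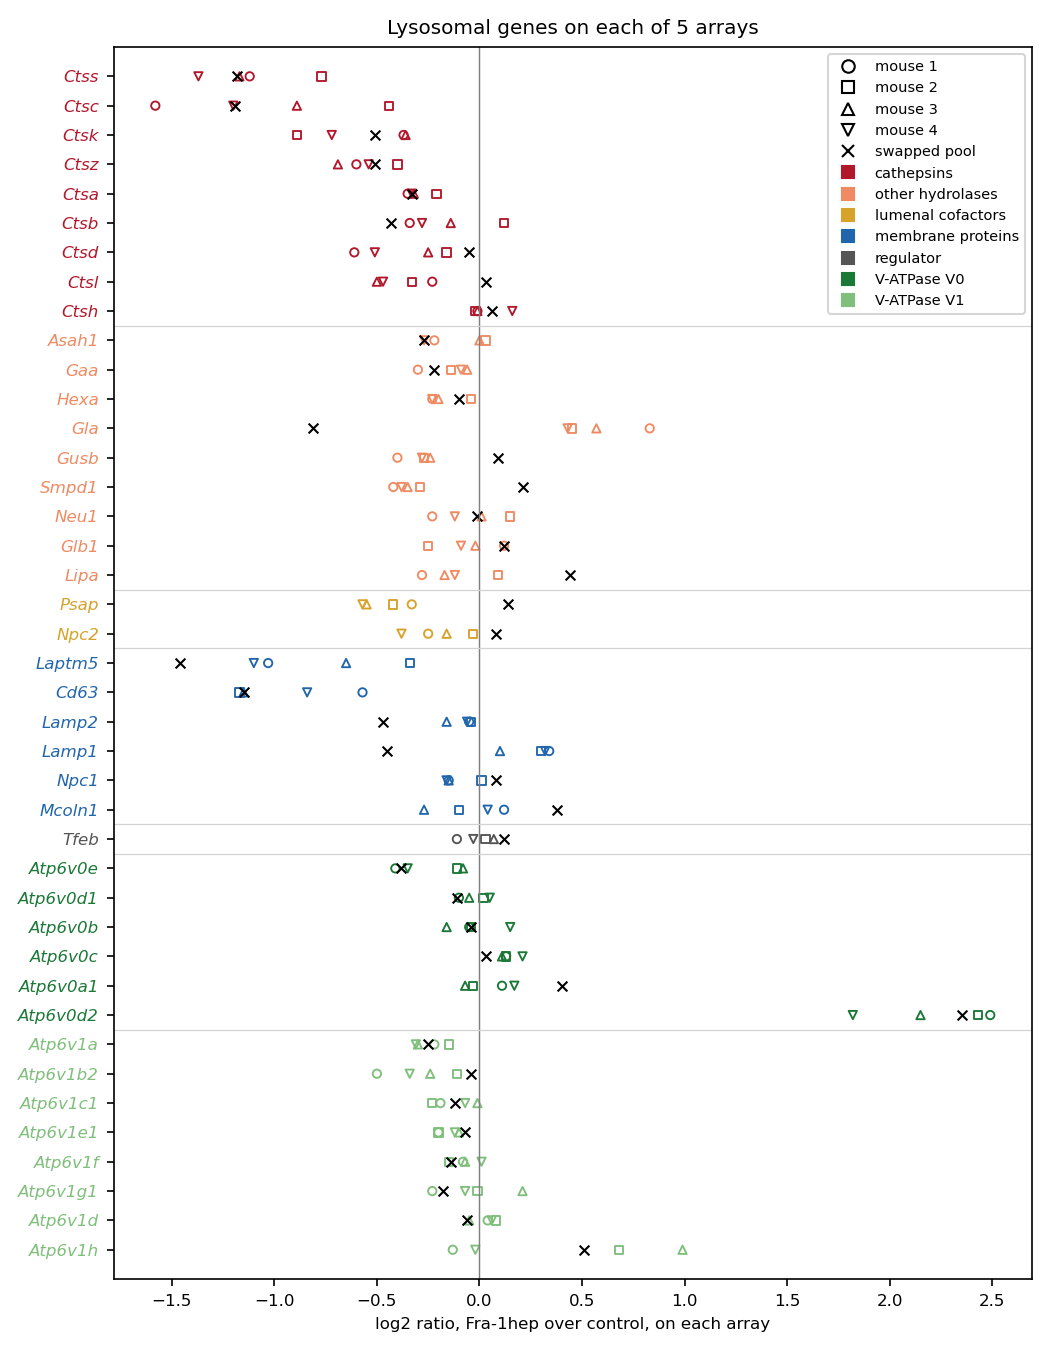
Log2 ratio of Fra-1hep over control (x axis) of 41 lysosomal genes (rows, coloured by group) on each array, with open symbols for the 4 mice and crosses for the swapped pool. Ctss, Ctsc, Cd63 and Laptm5 lie left of 0 on all 5 arrays, Atp6v0d2 lies between 1.82 and 2.49, and for Gla and Lamp1 the cross lies on the other side of 0 from the mice.

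Cathepsins are the lysosomal proteases, and 5 of the 9 fell while none rose, with a group median of -0.32. The 55.6% that passed stand beside 30.6% of all named genes, a difference that was not tested. The largest of these falls was in Ctss, the cysteine protease cathepsin S of antigen-presenting cells. Its ratios were -1.12, -0.77, -1.17 and -1.37 in mice 1 to 4, and the swapped pool read -1.18. Ctss fell 2.21-fold (-1.14 ± 0.10, adjusted p = 0.000585). Ctsc encodes cathepsin C, the dipeptidyl peptidase that activates granule serine proteases of neutrophils, mast cells and lymphocytes. It read -1.58, -0.44, -0.89 and -1.20 in the mice and -1.19 on the swapped array, a 2.16-fold fall (-1.11 ± 0.18, adjusted p = 0.00614). For both genes every array lay below 0 and mouse 2 showed the smallest fall.

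Ctsk, cathepsin K, a collagenase best known from osteoclasts, gave another order of the animals. Ratios of -0.37, -0.89, -0.36 and -0.72 in the mice and -0.51 on the swapped array amounted to a 1.46-fold fall (-0.55 ± 0.11, adjusted p = 0.0124). Here mouse 2 showed the largest fall, and mice 1 and 3 the smallest. The Ctsk call ended with the scanner's processed signals, and likewise with the deposited table, where the change was -0.71 with an adjusted p of 0.063. Ctsz, the carboxypeptidase cathepsin Z, was the tightest of the larger falls: -0.60, -0.40, -0.69 and -0.54 in the mice and -0.51 on the swapped array. It fell 1.45-fold (-0.54 ± 0.07, adjusted p = 0.00224).

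Ctsa, protective protein cathepsin A, which stabilises beta-galactosidase and neuraminidase, fell less (-0.32 ± 0.06, adjusted p = 0.00775). All 5 arrays lay between -0.35 and -0.21 at its brightest probe, and its other, dimmer probe gave -0.15. The broadly expressed proteases did not pass: Ctsb lay at -0.29 (adjusted p = 0.0521), Ctsd at -0.22 (0.02 at its other probe) and Ctsl at -0.17. Ctsh, an aminopeptidase, was the cathepsin nearest to 0, at 0.04 ± 0.06, with -0.01, -0.02, -0.01 and 0.16 in the mice and 0.06 on the swapped array. Ctsb missed the threshold narrowly and passed without mouse 2 (-0.34, adjusted p = 0.0129), the 1 array on which it was above 0.

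None of the 9 other acid hydrolases passed, and their changes ran from -0.19 to 0.16, with 7 of 9 below 0 and a median of -0.10. The group holds enzymes of lysosomal storage diseases: Lipa (acid lipase, 0.16), Gaa (acid alpha-glucosidase, -0.18), Glb1 (beta-galactosidase, 0.03), Hexa (beta-hexosaminidase alpha, -0.14), Gusb (beta-glucuronidase, -0.10), Asah1 (acid ceramidase, -0.19) and Smpd1 (acid sphingomyelinase, -0.07). Adjusted p-values of the group lay between 0.0765 and 0.826. Nearest to 0 was Neu1, the sialidase that cathepsin A protects, at -0.03 ± 0.08, with -0.23, 0.15, 0.01 and -0.12 in the mice and -0.01 on the swapped array. The lumenal cofactors did not pass either: Psap, the precursor of the saposins, lay at -0.17 and Npc2, a cholesterol carrier, at -0.06.

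**Figure D2:**
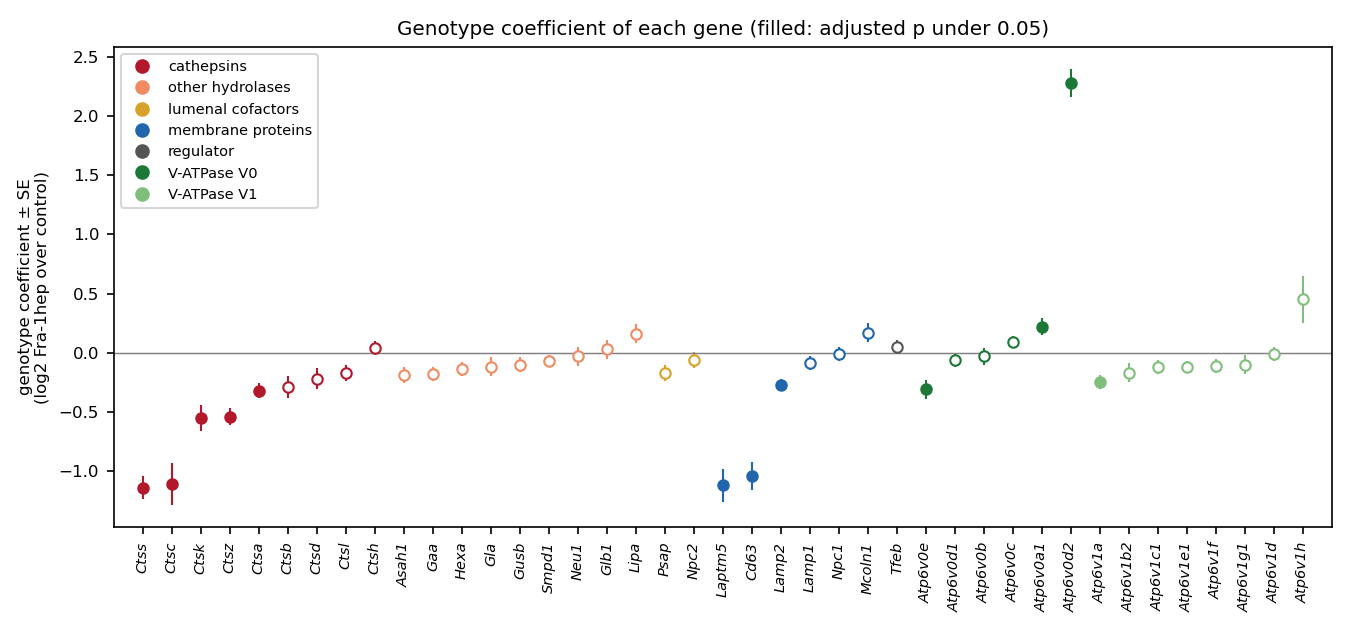
Genotype coefficient ± standard error (y axis, log2 Fra-1hep over control) of the 41 genes, ordered within groups by size; filled points passed the threshold of 0.05 on the adjusted p and open points did not. The 5 filled cathepsins lie between -1.14 and -0.32, all 9 other hydrolases are open, and Atp6v0d2 stands at 2.28.

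Several of these enzymes gave different signs in the 2 dye orientations. Gla, alpha-galactosidase A, chosen after its values were seen, read 0.83, 0.45, 0.57 and 0.43 in the mice but -0.81 in the swapped pool, and its coefficient was -0.12 (adjusted p = 0.343). Lamp1, chosen likewise, read 0.34, 0.30, 0.10 and 0.32 in the mice and -0.45 in the pool. Psap, Smpd1, Ctsl, Gusb and Npc2 went the other way, below 0 in all 4 mice and above 0 in the pool. In all, 7 of the 41 genes (17.1%) had the 4 mice on 1 side of 0 and the pool on the other, against 2140 of the named genes (15.8%). The median absolute dye effect was 0.08 both in these genes and in all named genes. A dye effect and a deviation of the swapped array or its pool cannot be told apart with 1 swapped array.

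**Figure D3:**
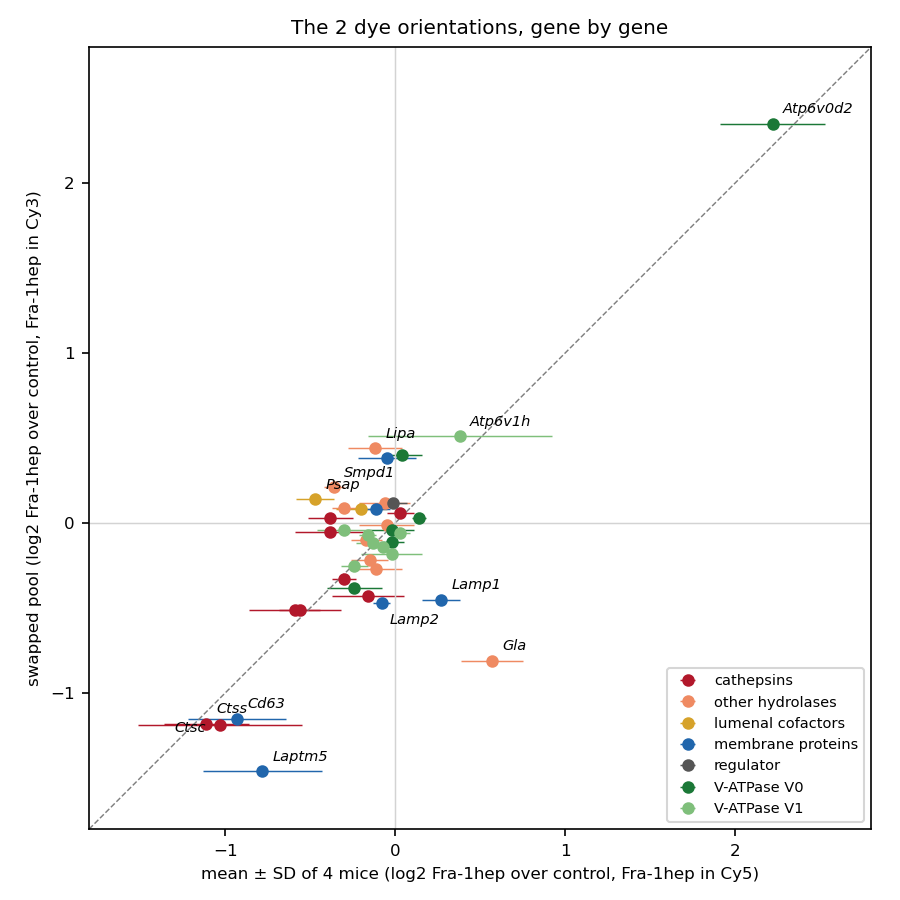
Mean ± SD of the 4 mice (x axis, Fra-1hep in Cy5) against the swapped pool (y axis, Fra-1hep in Cy3), both as log2 Fra-1hep over control, with 1 point per gene coloured by group; the dashed line marks equal values. Ctss, Ctsc, Cd63 and Atp6v0d2 lie near the line, whereas Gla (0.57 against -0.81) and Lamp1 (0.27 against -0.45) lie in the quadrant of opposite signs.

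Of the 6 membrane proteins tested, 3 fell and none rose (50%, beside 30.6% of named genes that passed, not tested), with a median of -0.18. Laptm5, a lysosomal membrane protein of haematopoietic cells, read -1.03, -0.34, -0.65 and -1.10 in the mice and -1.46 on the swapped array. It fell 2.17-fold (-1.12 ± 0.14, adjusted p = 0.00206). All 5 arrays lay below 0, with mouse 2 nearest to it, as for Ctss and Ctsc. The other probe gave -0.84, and without the swapped array the fall was -0.78 (1.71-fold, adjusted p = 0.00356).

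Cd63, a tetraspanin of late endosomes, lysosomes and exosomes, read -0.57, -1.17, -1.15 and -0.84 in the mice and -1.15 on the swapped array. The fall was 2.06-fold (-1.04 ± 0.12, adjusted p = 0.00138). In this gene mouse 1 showed the smallest fall and mouse 2 the largest, the reverse of Ctsc.

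The major structural proteins of the lysosomal membrane moved less. Lamp2, which also serves in chaperone-mediated autophagy, passed at -0.27 ± 0.05 (adjusted p = 0.0124). Its call rests on the swapped pool, at -0.47, since the mice lay between -0.16 and -0.04 and gave -0.08 (adjusted p = 0.254) without that array. The call also ended with no dye term (-0.16, adjusted p = 0.154) and with median centring (-0.25, adjusted p = 0.073). A second Lamp2 probe, designed on another transcript, gave -0.21, -0.35, -0.36 and -0.40 in the mice and -0.22 in the pool, all below 0, and its change was -0.28. Lamp1 lay at -0.09 and Mcoln1, a calcium channel, at 0.17, and neither passed. Npc1, the cholesterol exporter, was nearest to 0 at -0.01 ± 0.06, with -0.15, 0.01, -0.15 and -0.16 in the mice and 0.08 on the swapped array. Tfeb, the transcription factor of lysosomal genes, lay at 0.05 ± 0.06 and did not pass, with -0.11, 0.03, 0.07 and -0.03 in the mice and 0.12 in the pool.

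Among the 14 V-ATPase subunits, 2 rose, 2 fell and 10 did not pass, and the median was -0.08. The 28.6% that passed lie near the 30.6% of all named genes, so the count does not set the subunits apart. One subunit stood far from the rest. Atp6v0d2, an alternative d subunit of the V0 stalk known from osteoclasts, macrophages and kidney, read 2.49, 2.43, 2.15 and 1.82 in the mice and 2.35 on the swapped array. It rose 4.87-fold (2.28 ± 0.12, adjusted p = 6.96e-05). The second probe also lay above 0 throughout, at 2.12, 1.62, 1.39 and 1.20 in the mice and 1.45 in the pool, with a change of 1.52, and its control channel was well above background on 4 of 5 arrays. The size depended on the background correction: 2.88 (7.38-fold) with a normexp offset of 0, and 3.29 (9.79-fold) both with the processed signals and with the deposited table. Its widely expressed counterpart Atp6v0d1, chosen after its values were seen, read -0.10, 0.02, -0.05 and 0.05 in the mice and -0.11 in the pool (-0.06 ± 0.06, adjusted p = 0.437). The ranges of both d subunits over the arrays did not overlap, which is a description and not a test, given that choice.

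The other changes in the pump were small and less stable. Atp6v0a1, a subunit of the proton path, passed at 0.22 ± 0.07 (adjusted p = 0.0483). Its mice lay between -0.07 and 0.17 and its swapped pool at 0.40, so that without the swapped array the value was 0.04 (adjusted p = 0.603). The Atp6v0a1 call ended under 11 of 15 alternatives, among them leaving out any 1 of the mice (adjusted p of 0.0735, 0.0551, 0.0594 and 0.0865 without mice 1 to 4). Atp6v0e, a small V0 subunit, fell by 0.31 (SE 0.08, adjusted p = 0.0279), with -0.41, -0.11, -0.08 and -0.35 in the mice and -0.38 in the pool. That call ended without mouse 4 (adjusted p = 0.0605), with an offset of 0 (0.0597) and with the control pool's spread added (0.0894). Atp6v0c, the main proteolipid of the ring, lay at 0.09 and did not pass. Atp6v0b, another proteolipid, was nearest to 0 at -0.03 ± 0.07, with -0.05, -0.04, -0.16 and 0.15 in the mice and -0.04 in the pool.

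In the V1 sector 1 of 8 subunits fell, and the median was -0.11. Atp6v1a, the catalytic subunit, was below 0 on all 5 arrays (-0.31 to -0.15) and fell by 0.25 (SE 0.06, adjusted p = 0.0213). This call ended under 7 of 15 alternatives, including without mouse 3 (adjusted p = 0.0523) and without mouse 4 (0.0501); the other probe gave -0.11. Atp6v1b2, its partner in the catalytic ring, lay at -0.17, and Atp6v1c1, Atp6v1e1, Atp6v1f and Atp6v1g1 between -0.12 and -0.10; none of them passed. Atp6v1d, of the rotor, was nearest to 0 at -0.01 ± 0.06, with 0.04, 0.08, -0.05 and 0.06 in the mice and -0.06 in the pool. Atp6v1h, a regulatory subunit chosen after its values were seen, was the most uneven: it read -0.13, 0.68, 0.99 and -0.02 in the mice and 0.51 in the pool. It did not pass (0.45 ± 0.20, adjusted p = 0.15), since mice 2 and 3 were high and mice 1 and 4 near 0.

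**Figure D4:**
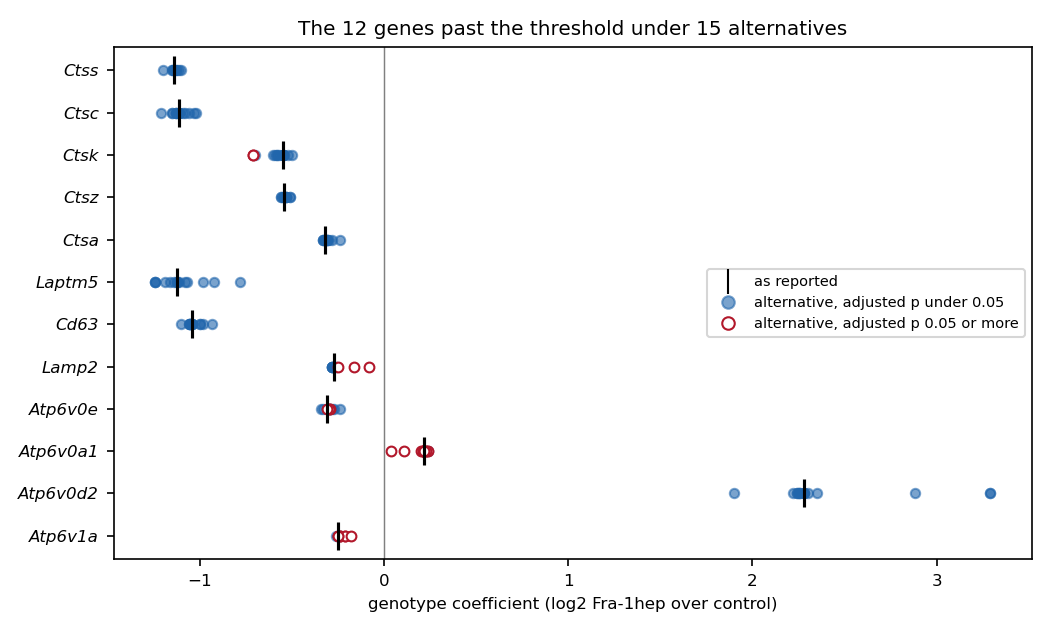
Genotype coefficient (x axis, log2 Fra-1hep over control) of the 12 genes that passed, as reported (black bars) and under 15 alternatives (circles, open red where the adjusted p was 0.05 or more). Ctss, Ctsc, Ctsz, Ctsa, Cd63, Laptm5 and Atp6v0d2 have no open circle, and Atp6v0a1 has 11.

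The wider pathway was read from lists of 102 other genes, of which 93 were tested and 9 were too dim. Of the 93, 22 fell, 9 rose and 62 did not pass, with a median of -0.07. The 33.3% that passed lie near the 30.6% of all named genes, of which 18.5% fell and 12% rose, so the count does not set these genes apart. Without the swapped array 34 fell and 13 rose, beside 23.8% and 16.7% of named genes, and without mouse 3 the falls numbered 14. Once the assumed spread of pooled controls was added, 8 falls and 5 rises were left, near the 9.93% and 6.03% of named genes. The falls included Idua and Slc17a5, chosen after their values were seen, which lay above 0 in all 4 mice and at -0.64 and -0.53 in the swapped pool.

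Other proteases and hydrolases went both ways, with 8 of 31 lower and 6 higher. The 45.2% that passed stand beside 30.6% of all named genes, a difference that was not tested. Ctse, the aspartic protease cathepsin E, was not well above background in Fra-1hep RNA on any of the 5 arrays, whereas control RNA was on all of them. It was at least 7.47-fold lower (adjusted p = 8.69e-05), with ratios from -3.62 to -2.59 on the 5 arrays. Smpdl3a, a phosphodiesterase related to acid sphingomyelinase, fell by 0.66 (SE 0.08, adjusted p = 0.00209). Manba, beta-mannosidase, rose by 0.64 ± 0.09 (adjusted p = 0.00271), with 0.52, 0.59, 0.30 and 0.75 in the mice and 0.74 in the pool. Naglu (0.52) and Galns (0.51), glycosaminoglycan-degrading enzymes chosen after their values were seen, rose too, while the cysteine protease gene Lgmn, chosen likewise, fell (-0.52, adjusted p = 0.00717).

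Among the other membrane proteins, 7 of 21 fell and 3 rose (47.6%, beside 30.6% of named genes that passed, not tested). Slc11a1, a metal transporter of phagocyte lysosomes, fell by 0.55 (SE 0.15, adjusted p = 0.0317), with -1.08, -0.23, -0.59 and -0.90 in the mice and -0.41 in the pool, so that mouse 2 was again nearest to 0. Abcb9, a peptide transporter, fell by 0.49 (SE 0.07), and Mfsd8 rose by 0.36 ± 0.05. Of 7 other V-ATPase subunits and partners tested, 2 fell, Atp6v0a2 (-0.41 ± 0.07) and Atp6ap2 (-0.29 ± 0.06), none rose, and 6 more were too dim. The 28.6% of the 7 that passed lie near the 30.6% of named genes.

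None of the 12 genes that sort enzymes to the lysosome passed; their changes lay between -0.21 and 0.17. Of 11 genes that control lysosome formation, 3 fell: Lamtor1, which anchors mTORC1 signalling at the lysosome (-0.32 ± 0.07), Tfec, a relative of TFEB (-0.25 ± 0.06), and Zkscan3, a repressor of autophagy genes (-0.20 ± 0.06). The Zkscan3 value leans on the swapped pool, at -0.35, since the mice read 0.03, -0.05, -0.17 and -0.02. The 27.3% of these 11 genes that passed lie near the 30.6% of named genes. Of 11 autophagy genes, Gabarapl1 (-0.34 ± 0.08) and Atg5 (-0.24 ± 0.06) fell and none rose, a share of 18.2% beside the 18.5% of named genes that fell.

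Whole liver was measured, so fewer cells of a type and less RNA per cell cannot be told apart. Marker lists of cell types are given beside these genes, and the lists did not all move in the same direction. Of 18 macrophage and monocyte markers, 14 fell and none rose, with a median of -0.61. Of all named genes, 18.5% fell and 12% rose, the background for this and the marker lists below. It was 23.8% and 16.7% without the swapped array, and 9.93% and 6.03% with the control pool's spread added. One of the 14, Itgam (chosen after its values were seen), read 0.22, 0.10, 0.13 and 0.05 in the mice and was below 0 in the swapped pool alone, at -0.57. The medians over the list were -0.90, -0.42, -0.72 and -0.94 in mice 1 to 4, with -0.52 for the swapped pool. Gpnmb (-1.88 ± 0.12; well above background in Fra-1hep RNA on 1 of 5 arrays), Trem2 (-0.86 ± 0.06) and Itgax (-1.28 ± 0.11) had the smallest p. The summed level of the 18 genes ran from 34293 to 47936 intensity units in the Fra-1hep channels. In the control channels it ran from 55008 to 63542, without overlap. Here and in the lists below, the control channels read 1 pool on 5 arrays, so their range holds no spread among control mice. Mouse 2 had the highest sum and the smallest fall in Ctss, Ctsc and Laptm5. The marker list did not share this order throughout, as genes chosen after their values were seen show. Among the mice, mouse 2 had the smallest fall in Adgre1 and Itgax but the largest in Trem2, Cd74, Spp1 and Cx3cr1. With 4 mice no correlation was computed, and the part of macrophage RNA in these falls was not tested.

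Resident Kupffer cell markers were less uniform: 1 of 6 fell, Cd5l (adjusted p = 0.0155), none rose, and the list medians were -0.71, 0.44, -0.03 and -0.64 in the mice and -0.14 in the pool. Without mouse 2, 3 of the 6 fell, and with the control spread added 0 did. Their summed levels ran from 14842 to 38915 in Fra-1hep and from 33625 to 42238 in control channels and overlapped. Neutrophil markers moved the other way, with 7 of 8 higher and a median of 2.34, led by Mpo (2.74), S100a8 (2.60) and Camp (2.63). Sums of 19849 to 58398 in Fra-1hep and 5352 to 6036 in control channels did not overlap, and mouse 2 had the highest list median at 3.29.

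Atp6v0d2 and Ctsk are known from osteoclasts. The osteoclast list gave 3 tested genes, all lower, Ocstamp (-0.32), Oscar (-0.26) and Nfatc1 (-0.37), while Calcr and Dcstamp, also listed, did not pass the background filter. Summed levels of the 3 ran from 477 to 728 in Fra-1hep and from 678 to 860 in control channels and overlapped. The falls numbered 1 without mouse 4, with processed signals or with the deposited table, 2 without mouse 3, and 0 with the control spread added. The rise of Atp6v0d2 stood beside lower macrophage markers and higher neutrophil markers; the part of neutrophil RNA in it was not tested. Atp6v0d2 was highest in mice 1 and 2 and lowest in mouse 4, while the neutrophil median was 1.80, 3.29, 1.60 and 1.94 in mice 1 to 4.

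Stellate cell and fibroblast markers fell in 7 of 9 cases, with a median of -0.70 and none higher. Col1a2 (-1.62 ± 0.11), Dcn (-1.07 ± 0.09) and Col3a1 (-1.52 ± 0.13) had the smallest p. Col1a2 read -1.27, -1.86, -1.56 and -1.71 in the mice and -1.63 in the pool. Mouse 1 showed its smallest fall and mouse 2 its largest, the same extremes as in Cd63. The list did not share this order, with medians of -0.72, -0.75, -0.68 and -0.99 in mice 1 to 4 and -0.96 in the pool. Summed levels were 16478 to 21807 in Fra-1hep against 35305 to 45539 in control channels, and their part in the falls of Cd63 and Ctsk was not tested.

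Of 8 endothelial markers 4 fell and none rose (median -0.37, Lyve1 at -1.52), and of 7 lymphocyte markers 2 fell and none rose (median -0.14). The 28.6% of lymphocyte markers that passed lie near the 30.6% of all named genes, so that count does not set them apart. The endothelial falls numbered 2 without mouse 4 and 1 with the control spread added, and without the swapped array 6 endothelial and 4 lymphocyte markers fell and 1 endothelial marker rose. Hepatocyte markers had 1 of 10 higher and 1 lower, 20% in all beside 30.6% of named genes, with a median of 0.03. Without the swapped array 6 were higher and 0 lower, without mouse 4 0 were higher, and without any 1 of mice 1 to 3 0 were lower. Their list medians were 0.44, 0.56, 0.40 and 0.38 in the mice and -0.35 on the swapped array, a split between the dye orientations as for Gla and Lamp1. Summed hepatocyte levels, 779208 to 1090511 in Fra-1hep and 652285 to 1011036 in control channels, overlapped.

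**Figure D5:**
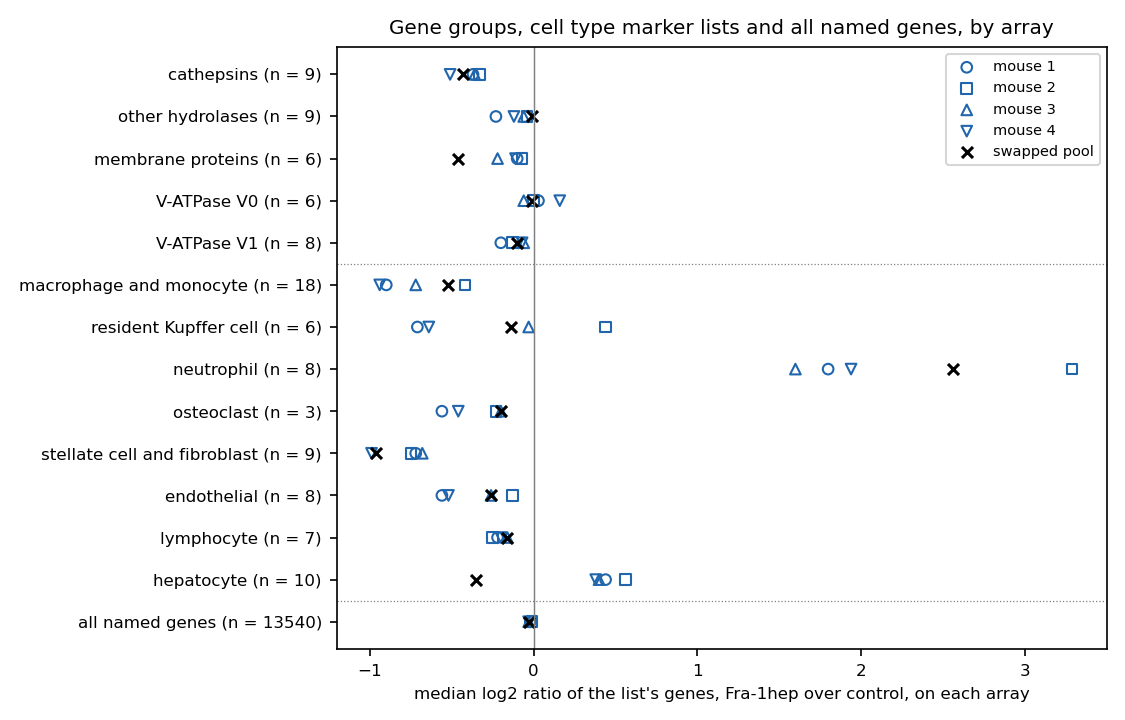
Median log2 ratio of Fra-1hep over control (x axis) of each gene group, cell type marker list and all named genes (rows, n genes each) on each array, with open symbols for the 4 mice and crosses for the swapped pool. Cathepsin medians lie between -0.51 and -0.33 and macrophage medians between -0.94 and -0.42, neutrophil medians lie between 1.60 and 3.29, and hepatocyte medians are above 0 in the mice and below 0 in the pool.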

How the data were processed

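The authors extracted spot intensities with Feature Extraction software (10.7 in the submitters' processing notes, 10.7.3.1 per the file headers). The deposited scanner files hold raw median signals and local backgrounds as intensity, processed signals, log10 ratios (Cy5 over Cy3) and flags of 0 or 1. The deposited series table holds log2 ratios; against the scanner ratios of 23066 probes it had slopes of 1 (mice) and -1 (swapped array), so its sign is Fra-1hep over control. Column medians of 0.13, 0.08, 0.04 and 0.13 (mice 1 to 4) and -0.04 (swapped array) show that it was not centred on the median, and the sources used here do not give any further step.

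Median signals were corrected with normexp (offset 50), normalized by loess within each array and averaged over spots of 1 probe; control spots and 177 outlier spots had weight 0, and 0 spots were saturated. Of 55681 probes, 26056 were named through their accession in a RefSeq table of GRCm38.p6, used for names alone. A probe had to be well above background on 3 or more arrays in Cy5 or Cy3 (28105 were), and a gene was read from its brightest such probe, giving 21521 features. limma 3.58.1 (R 4.3.3) fitted a dye intercept and a genotype term of 1 (mice) or -1 (swapped array). The 4 mice left 3 residual degrees of freedom, beside 4.02 prior ones. The swapped array left none, so no standard error or p-value of this fit holds its own deviation. Its pool may hold RNA of the same mice, in which case it adds no animals. Precision is limited by the number of arrays; named genes had a median standard error of 0.0666. The labels number the mice separately but do not say more of their origin. The fit was tested on simulated data with independent errors, of the same variance on all arrays for a given feature. The simulation held no error shared through the control pool and no deviation of the swapped array, so it does not cover these.

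A change against a channel never well above background is a bound. It uses on each array whichever is higher, that probe's level or the dimmest probe well above background, from single-channel values (loess, then Aquantile) that are open to dye bias. Summed marker levels are sums of such intensities.

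Members, lists and tests were chosen with earlier results of these data known. Array values are given for members that passed with a change of at least 0.4 and for the member of each group nearest to 0; of other lists, up to 3 genes that passed with the largest change, and of marker lists up to 3 with the smallest p. Genes picked outside this rule are marked as such, apart from members given in brief. Alternatives were leaving out each array, no dye term, an offset of 0, processed signals, the deposited table and median centring. Others were no filter and a strict filter on dim probes, the mean of all probes, and array weights. The last enlarged standard errors 1.28-fold for 5 control mice, whose spread was assumed equal to the fitted one.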

Additional observations from a re-analysis of the deposited data

Results flagged for a closer look

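In 5 of the 41 lysosomal genes, 1 of the 4 mice lay apart from the other 3 by more than Dixon's 95% limit. Chance alone marks about 1 in 20 groups of independent normal values. The share marked among all named genes is not given here, so the count does not set these genes apart. Mouse 4 read 0.16 for Ctsh, against -0.02 to -0.01 in the others. For Hexa, mouse 2 read -0.04, against -0.23 to -0.20, and for Npc1 it read 0.01, against -0.16 to -0.15. Mouse 3 read 0.10 for Lamp1, against 0.30 to 0.34, and -0.16 for Lamp2, against -0.06 to -0.04. Of these 5 genes, Lamp2 alone had passed the threshold.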

How the results depend on the processing

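Of the 12 genes that passed, Ctsa, Ctsc, Ctss, Ctsz, Cd63, Laptm5 and Atp6v0d2 passed in the same direction under all 15 alternatives; Ctsk, Lamp2, Atp6v0e, Atp6v1a and Atp6v0a1 did not. The count of the lysosomal genes that rose, 2 as reported, was 1 with no dye term, an offset of 0, median centring, no filter on dim probes, array weights or the control pool's spread added, and 1 to 3 when 1 array was left out. The count that fell, 10 as reported, ran from 8 to 18 when 1 array was left out. Of the other pathway genes, 22 fell as reported, 13 with an offset of 0 or median centring, 14 with processed signals or the deposited table, 8 with the control pool's spread, and 14 to 34 when 1 array was left out. Their 9 rises became 5 with the control pool's spread and 7 to 13 when 1 array was left out. The median of the membrane proteins, -0.18, was -0.11 with no dye term and -0.19 to -0.10 when 1 array was left out, while that of the cathepsins lay between -0.38 and -0.28 throughout. When 1 array was left out, Gla ran from -0.16 to 0.57 and Lamp1 from -0.10 to 0.27. Both upper values come without the swapped array (limma adjusted p = 0.00174 and 0.0124), against -0.12 and -0.09 with it; with no dye term they were 0.30 and 0.12, and the cause was not tested. Leaving out mouse 1, alone on its slide, is also the value within the slide of the other 4 arrays: 10 genes fell and 1 rose. No paired analysis was possible because each mouse was set against 1 shared control pool, so the groups share no replicate numbers.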
